A study of Mus musculus with 9 samples.

Results

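The genes described here encode the TCF/LEF DNA-binding factors of canonical Wnt signalling and the nuclear proteins that work with them: Tcf7, Tcf7l1, Tcf7l2 and Lef1, the co-activators Bcl9, Bcl9l, Pygo1 and Pygo2, and the Groucho-type co-repressors Tle1 and Tle4. They were chosen by symbol, as 10 of the 48526 Ensembl gene identifiers in the table, and all 10 had a mean of at least 10 normalized read counts and entered the test. RNA was sequenced from the MGE (medial ganglionic eminence), a ventral source of many cortical interneurons, of C57BL/6 mouse embryos at embryonic day 14.5. All 9 libraries carry Nkx2.1-cre, a Cre recombinase under Nkx2-1 regulatory sequence, and Rosa26-YFP, a fluorescent Cre reporter. Control replicates 1 to 3 carry no other allele, control replicate 4 is Ctnnb1fl/wt, and the 5 knockout libraries are Ctnnb1fl/fl. Deletion is therefore limited to cells that have expressed this Cre, while the libraries were made from whole-tissue or collected-cell RNA that may hold other cells. Separate embryos for the libraries are not stated in the labels, so p-values measure only the spread among libraries, and this may be technical.

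TCF/LEF proteins sit on their target genes whether or not a Wnt signal is present. Without one, they hold TLE proteins, which recruit histone deacetylases and keep the gene low. When beta-catenin, the product of Ctnnb1, accumulates, it displaces TLE from the TCF/LEF factor and forms a chain with Bcl9 or Bcl9l and, through these, with a Pygopus protein that reads methylated histone tails. The comparison of knockout with control asks how the transcripts of this machinery stand when the beta-catenin gene itself is deleted.

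Ctnnb1 (chromosome 9, 120929216 to 120960507, mm10) stood at 9841, 9960, 9967 and 9545 normalized read counts in control replicates 1 to 4 and at 7103, 7661, 7133, 6572 and 5477 in knockout replicates 1 to 5. The groups did not overlap, and the knockout mean was 69.1% of control. Several libraries stood apart by transcripts of neighbouring tissue. Summed dorsal telencephalic markers reached 2964 in control replicate 1, while control replicates 2 to 4 held 97.7 to 217 and knockouts 191 to 657, and choroid plexus markers reached 2993 there, against 171 to 757 elsewhere. Thalamic and diencephalic markers were highest in knockout replicate 4 (898) and control replicate 4 (726), and mesenchymal markers in knockout replicate 5 (3768). Single genes made up much of some sums. Ttr supplied 2691 of the choroid plexus sum in control replicate 1. Otx2, counted in both the choroid plexus and the diencephalic list, supplied 410 of the diencephalic sum in knockout replicate 4 and 285 in control replicate 4. In control replicates 2 and 3 it supplied 151 of 169 and 143 of 180. Depth was alike, from 5120585 to 5569444 reads per library. All 14 markers of MGE neurons, Lhx6 and Sox6 among them, were above 0 in every library. Results are given below for all libraries and, where a call changes, for control replicates 2 and 3 alone as the controls, or for these against knockout replicates 1 to 3. The last comparison was chosen after seeing the data. It leaves out control replicate 1 and knockout replicates 4 and 5, each the highest library for at least 1 of these marker sums, and the heterozygous control replicate 4, the second highest for diencephalic markers.

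Among the 10 genes, Bcl9, Bcl9l, Pygo1 and Tle4 rose in knockout and Tcf7l1 and Tle1 fell (limma, adjusted p over all 13780 genes tested). The other 4, Tcf7, Tcf7l2, Lef1 and Pygo2, were not called. Of all genes tested, 17.2% were called higher and 17.3% lower, so 4 and 2 of 10 are to be read against a background in which about 1 gene in 3 was called. The groups did not overlap for Bcl9, Pygo1 and Tle4 on the higher side, where 14.5% of all genes were without overlap, and for Tcf7l1 and Tle1 on the lower side, where 14.6% were. The median log2 fold change of the 10 genes was 0.11, with a range from -0.70 to 0.82, and that of all genes was -0.011. Against control replicates 2 and 3 alone, 3 of the 10 were higher, against 9.94% of all genes, and 1 was lower, against 8.04%. With control replicates 2 and 3 against knockout replicates 1 to 3, 3 were higher, against 9.53%, and 2 were lower, against 9.21%.

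**Figure D1:**
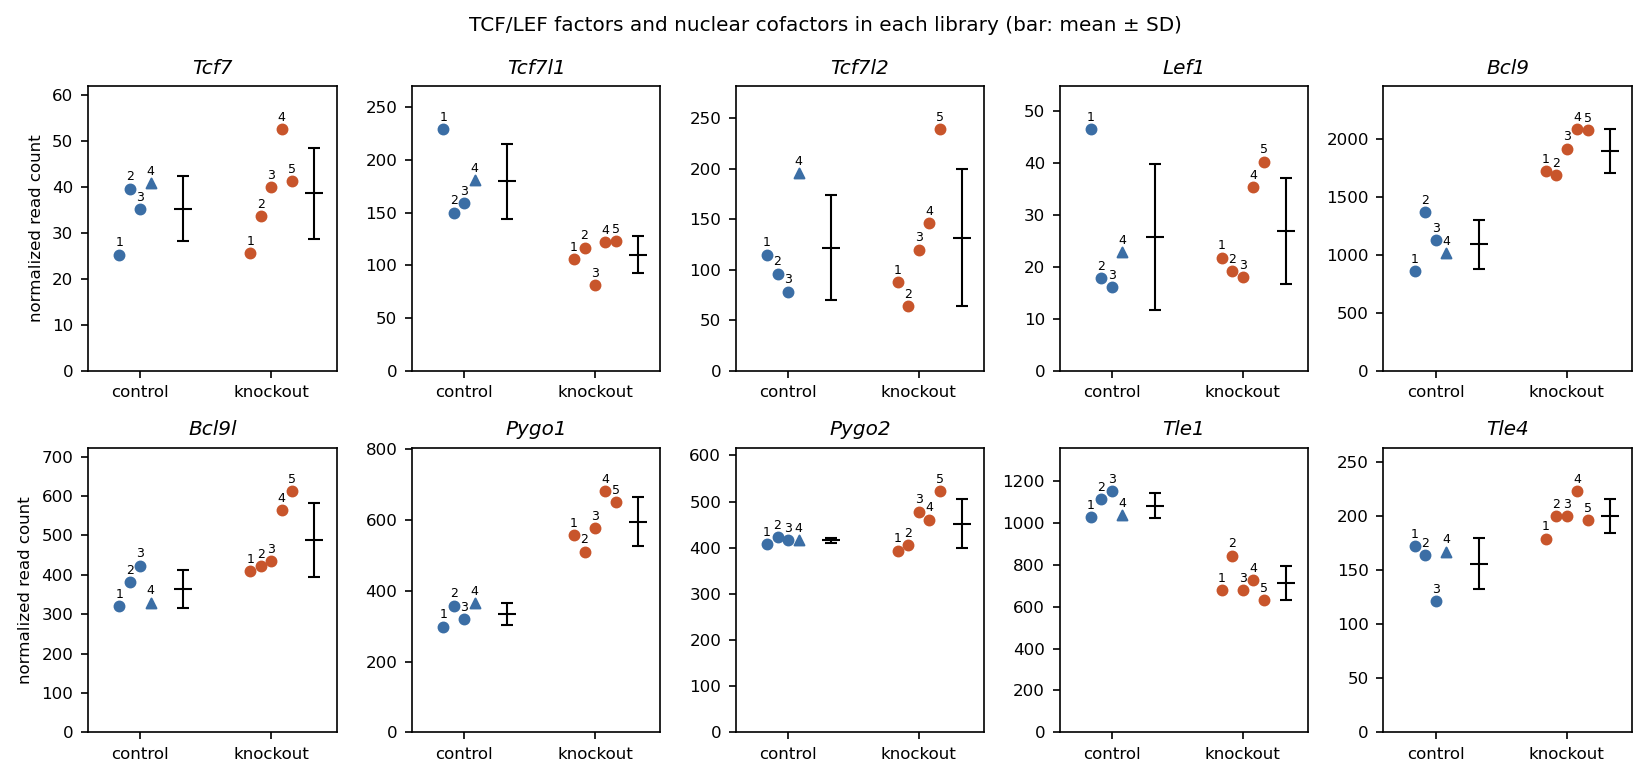
Normalized read count of each of the 10 genes in 4 control and 5 knockout libraries, 1 panel per gene with its own linear axis from 0; points are libraries with their replicate number, the triangle is the heterozygous control replicate 4, and bars are mean ± SD. Bcl9, Pygo1 and Tle4 lie higher in every knockout than in every control, Tcf7l1 and Tle1 lie lower, and the other 5 genes overlap.

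The promoters of the 4 members with the largest changes are shown first, as windows around annotated starts. Counts per gene do not tell which start the measured transcripts used. RefSeq windows of 300 bases, from 250 before to 50 after an annotated start (GRCm38.p6, the mm10 assembly), were matched by symbol for 9 of the 10 members, 17 windows in all. Bcl9l had no matching entry. All 4 windows below were rich in CpG, the dinucleotide that clusters in promoters of widely expressed genes, and each CG is in capitals. Pygo1 held 48 CpG (chr9:72925395-72925694, plus strand), a number reached by 1.22% of 32851 RefSeq windows. Bcl9 held 39 (chr3:97227315-97227614, minus strand, inside the longer GENCODE gene). Tle1 held 40 (chr4:72200844-72201143, minus strand) and Tcf7l1 held 34 (chr6:72788996-72789295, minus strand). The median window held 7, and 15 of the 17 member windows held more. High CpG content was thus shared by the windows of genes that rose and of genes that fell.
Pygo1: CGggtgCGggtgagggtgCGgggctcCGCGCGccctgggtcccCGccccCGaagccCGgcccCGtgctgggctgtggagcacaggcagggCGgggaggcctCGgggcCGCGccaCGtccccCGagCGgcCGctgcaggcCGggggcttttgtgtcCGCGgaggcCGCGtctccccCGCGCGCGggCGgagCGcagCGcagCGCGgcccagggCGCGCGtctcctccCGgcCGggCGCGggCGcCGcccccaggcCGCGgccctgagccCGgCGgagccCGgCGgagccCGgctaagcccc
Bcl9: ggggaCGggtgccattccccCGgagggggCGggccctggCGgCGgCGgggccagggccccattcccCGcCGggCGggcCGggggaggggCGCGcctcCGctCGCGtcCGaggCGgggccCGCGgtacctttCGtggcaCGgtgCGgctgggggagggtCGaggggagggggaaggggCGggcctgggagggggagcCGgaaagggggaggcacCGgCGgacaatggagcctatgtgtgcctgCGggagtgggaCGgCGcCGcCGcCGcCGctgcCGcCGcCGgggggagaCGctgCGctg
Tle1: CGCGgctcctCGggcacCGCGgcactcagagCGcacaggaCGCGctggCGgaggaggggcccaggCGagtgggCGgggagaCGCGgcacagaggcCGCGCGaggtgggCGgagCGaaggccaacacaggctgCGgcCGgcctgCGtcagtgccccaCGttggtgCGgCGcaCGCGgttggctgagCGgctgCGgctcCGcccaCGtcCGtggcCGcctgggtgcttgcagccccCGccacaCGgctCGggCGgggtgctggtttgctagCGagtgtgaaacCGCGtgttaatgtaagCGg
Tcf7l1: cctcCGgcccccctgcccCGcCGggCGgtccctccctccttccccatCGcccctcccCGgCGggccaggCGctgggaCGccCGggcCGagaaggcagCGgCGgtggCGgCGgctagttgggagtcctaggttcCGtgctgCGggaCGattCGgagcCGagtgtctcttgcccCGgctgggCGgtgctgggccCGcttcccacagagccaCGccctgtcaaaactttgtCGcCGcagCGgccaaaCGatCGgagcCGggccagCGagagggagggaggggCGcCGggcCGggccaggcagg

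The same windows were searched on both strands for CTTTGAA and CTTTGTT, 2 forms of the core that TCF/LEF factors recognise. Either form was present in 1 of 17 member windows (5.88%), against 10.6% of all 32851 windows. Some windows of the same gene overlap, as for Lef1 and Pygo2. Counted by gene, 1 of the 9 members with a window held either form, against 12.1% of 27025 genes, so no lower frequency in the members was shown. The 1 window belongs to an internal start of Tcf7l2 (chr19:55895071-55895370, plus strand), with CTTTGTT beginning 14 bases before the start, shown in capitals. The absence of these letters from the other 16 windows refers to these windows and these 2 spellings alone.
Tcf7l2: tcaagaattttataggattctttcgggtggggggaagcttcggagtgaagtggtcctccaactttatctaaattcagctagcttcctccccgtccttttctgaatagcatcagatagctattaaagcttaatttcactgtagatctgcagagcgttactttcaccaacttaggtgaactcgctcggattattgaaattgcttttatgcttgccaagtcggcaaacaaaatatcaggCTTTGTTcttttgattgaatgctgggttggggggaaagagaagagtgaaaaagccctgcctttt

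Of the DNA-binding factors, only Tcf7l1 was called. Tcf7l1 (chromosome 6, 72626378 to 72789254, minus strand), a TCF known chiefly as a repressor that holds progenitor states, had 229, 150, 159 and 181 normalized read counts in control replicates 1 to 4 and 106, 117, 81.2, 122 and 123 in knockout replicates 1 to 5. Every knockout library was below every control. The gene fell from 180 ± 35.6 (SD, n = 4) to 110 ± 17.5 (SD, n = 5), a log2 fold change of -0.70 (SE 0.156, limma adjusted p = 0.00340). Against control replicates 2 and 3 alone the value was -0.50 (adjusted p = 0.0675), below the call, and with these against knockout replicates 1 to 3 it was -0.62 (adjusted p = 0.0218). Control replicate 1, the highest for Tcf7l1, was also the library with cortical and choroid plexus transcripts.

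Progenitor and neuron markers also differed between the groups. Of 12 radial glia markers, 7 were lower, 0 higher and 5 not called, with summed counts of 21042 to 26430 in control and 12563 to 16167 in knockout. All 12 mitosis markers were lower, with sums of 23949 to 25943 and 9553 to 18588. Of 14 markers of postmitotic MGE neurons, 13 were higher, with sums of 17522 to 26174 and 37405 to 48164. The part of these in the changes of the 10 genes was not tested, and in tissue RNA fewer cells of a type and less RNA per cell cannot be told apart.

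Tcf7 (chromosome 11, 52252371 to 52283014, minus strand), which encodes TCF1, a factor best known from T cells and often a Wnt target itself, stood at 25.3, 39.7, 35.2 and 40.9 in control and 25.7, 33.7, 40.1, 52.6 and 41.3 in knockout. The lowest control and the lowest knockout library nearly coincided. Its log2 fold change was 0.12, with a 95% confidence interval from -0.37 to 0.60 (limma adjusted p = 0.720).

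Lef1 (chromosome 3, 131110471 to 131224356, plus strand), an activating factor that marks Wnt-responsive tissue such as the cortical hem, was the scarcest member, at 46.5, 17.9, 16.1 and 22.9 in control and 21.8, 19.2, 18.1, 35.4 and 40.3 in knockout. Control replicate 1 and knockout replicates 4 and 5 were the high libraries. The same 3 libraries were highest for the summed markers of cortical hem and Cajal-Retzius cells, with 661, 606 and 352 against 63.3 to 178 in the other 6. Reln supplied most of this sum in control replicate 1 and in knockout replicate 5 (270 of 352). In knockout replicate 4, Reln supplied 244 and Rspo2 242 of 606. None of the 5 tested genes of the hem list was called. The match was not particular to the hem list. Summed dorsal telencephalic markers were also highest in these 3 libraries, with 2964, 423 and 657 against 97.7 to 223 in the other 6. Summed endothelial markers, from vessels in which Lef1 is also known, ranged from 1381 to 1809 in control and 1520 to 1908 in knockout. The log2 fold change of Lef1 was 0.11, with an interval from -0.59 to 0.81 (limma adjusted p = 0.819).

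Tcf7l2 (chromosome 19, 55741820 to 55933654, plus strand), which encodes TCF4 and is a marker of the developing thalamus, stood at 115, 96.3, 78.4 and 196 in control and 88.0, 64.4, 120, 146 and 239 in knockout. Its highest libraries were knockout replicate 5 and control replicate 4. Summed thalamic and diencephalic markers were 355, 169, 180 and 726 in control and 145, 132, 187, 898 and 429 in knockout. Summed mesenchymal markers were 2106, 1178, 690 and 1629, and 1375, 1388, 921, 786 and 3768, so that knockout replicate 5 was the highest for these and for Tcf7l2. The log2 fold change of Tcf7l2 was 0.06, with an interval from -0.83 to 0.94 (limma adjusted p = 0.923), which allows a change in either direction as large as that of Tcf7l1. For Lef1 and Tcf7l2 the part of neighbouring tissue in the spread was not tested.

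**Figure D2:**
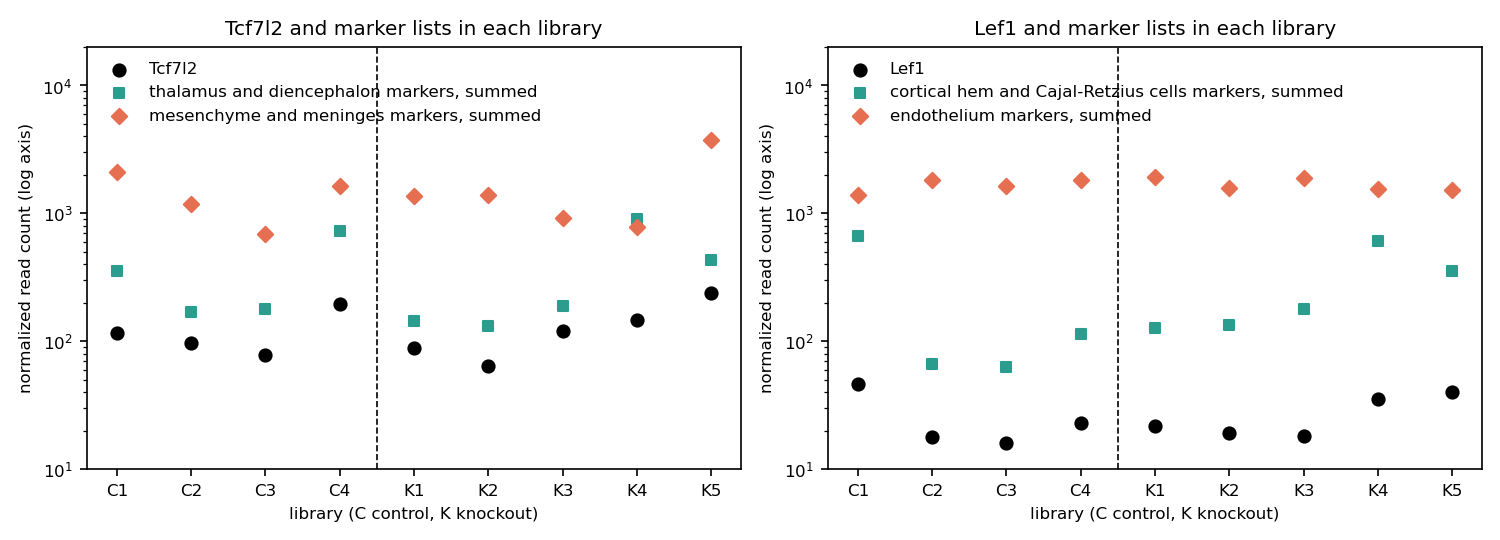
Normalized read count on a log axis in each library (C control, K knockout; dashed line between the groups) of Tcf7l2 with the summed thalamic and diencephalic and summed mesenchymal markers (left) and of Lef1 with the summed cortical hem and summed endothelial markers (right). Lef1 is highest in C1, K5 and K4, the 3 libraries with the highest hem sums, and Tcf7l2 is highest in K5 and C4.

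Genes with the most similar profile to each factor were found among 9688 genes, by the root mean square difference of centred log2 values over the 9 libraries. Candidates had a mean of 50 or more. Genes without a symbol, with predicted or clone names or of mitochondrial origin, and the 10 genes themselves, were left out. For Tcf7l1 these were Fut9, a fucosyltransferase that makes the Lewis X epitope of neural progenitors (difference 0.136), Fkbp9, an endoplasmic reticulum prolyl isomerase (0.140), and the katanin-like gene Katnal2 (0.142). The median candidate differed by 0.454. For Tcf7l2 they were the collagen chaperone gene Fkbp10 (0.341), the platelet-derived growth factor receptor gene Pdgfra (0.353) and Slc9a3r2 (0.354), against a median of 0.629. For Lef1 they were Mdga1 (0.196), Rcn3 (0.214) and Hivep2 (0.250), against 0.582, and for Tcf7 they were Fut11 (0.169), Bicd1 (0.180) and Zc3hav1l (0.181), against 0.380. Pdgfra marks mesenchymal cells and oligodendrocyte precursors, and is among the mesenchymal markers summed above. The log2 values of Tcf7l1, Tcf7l2, Lef1 and Tcf7 themselves had an SD of 0.442, 0.612, 0.548 and 0.330 over the libraries. The median differences were close to these SDs, and the nearest genes of Tcf7l2 matched their factor least closely. The likeness describes these 9 libraries only.

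Both Bcl9 genes rose. Bcl9 (chromosome 3, 97203662 to 97297917, minus strand), the adaptor that binds beta-catenin on one side and Pygopus on the other, had 861, 1366, 1126 and 1017 normalized read counts in control and 1724, 1688, 1916, 2082 and 2075 in knockout. The lowest knockout library was above the highest control. The mean rose from 1093 ± 212 (SD, n = 4) to 1897 ± 187 (SD, n = 5), a log2 fold change of 0.81 (SE 0.121, limma adjusted p = 0.000296). Control replicate 1 was the lowest control. The value was 0.61 (adjusted p = 0.00514) against control replicates 2 and 3 alone and 0.52 (adjusted p = 0.00244) with these against knockout replicates 1 to 3, so the size of the rise depended on the libraries and the call did not.

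Bcl9l (chromosome 9, 44482825 to 44511896, plus strand), the paralog with the same adaptor role, had 321, 382, 423 and 329 in control and 409, 422, 434, 565 and 613 in knockout. Control replicate 3 lay within the knockout range, and knockout replicates 4 and 5 were the highest. The log2 fold change was 0.41 (SE 0.133, limma adjusted p = 0.0269). The call was lost against control replicates 2 and 3 alone (0.26, adjusted p = 0.288) and with these against knockout replicates 1 to 3 (0.07, adjusted p = 0.689). It was also lost in 8 other alternatives, among them leaving out control replicate 1 (adjusted p = 0.0794), control replicate 4 (0.0843), knockout replicate 4 (0.0671) or knockout replicate 5 (0.0548). Exons of Bcl9l overlap those of Cxcr5 on the opposite strand over 110 bases, and Cxcr5 had at most 10.1 normalized counts in a library.

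Of the Pygopus genes, Pygo1 was called and Pygo2 was not. Pygo1 (chromosome 9, 72925645 to 72952181, plus strand), whose PHD finger reads histone methylation, had 299, 358, 319 and 365 normalized read counts in control and 558, 511, 576, 682 and 650 in knockout. The 5 knockout libraries lay well above the 4 controls. The mean rose from 335 ± 31.3 (SD, n = 4) to 595 ± 69.8 (SD, n = 5), a log2 fold change of 0.82 (SE 0.104, limma adjusted p = 0.000104). Pygo1 was called under all 21 alternatives, with values from 0.70 to 0.88.

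Pygo2 (chromosome 3, 89430214 to 89435128, plus strand), the paralog that is widely expressed in other tissues, had 408, 423, 416 and 416 in control and 394, 405, 478, 461 and 523 in knockout. The controls were nearly equal and lay within the knockout range. Its log2 fold change was 0.11, with an interval from -0.09 to 0.32 (limma adjusted p = 0.388).

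Tle1 fell and Tle4 rose. Tle1 (chromosome 4, 72117142 to 72200919, minus strand), a Groucho-type co-repressor, had 1026, 1112, 1151 and 1036 normalized read counts in control and 677, 842, 679, 727 and 632 in knockout. All knockout libraries were below all controls. The mean fell from 1081 ± 60.1 (SD, n = 4) to 711 ± 80.6 (SD, n = 5), a log2 fold change of -0.61 (SE 0.0940, limma adjusted p = 0.000359), and the call held under all 21 alternatives, with values from -0.75 to -0.57.

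Tle4 (chromosome 19, 14448150 to 14598051, minus strand), the paralog known as a marker of corticothalamic neurons in the cortex, had 172, 164, 121 and 167 in control and 179, 200, 200, 223 and 196 in knockout. The groups did not overlap, but the highest control and the lowest knockout library were close. The mean rose from 156 ± 23.8 (SD, n = 4) to 200 ± 15.6 (SD, n = 5), a log2 fold change of 0.36 (SE 0.123, limma adjusted p = 0.0328). Without control replicate 3, the lowest, the value was 0.25 (adjusted p = 0.114). The call was also lost without knockout replicate 2 (adjusted p = 0.0501), 3 (0.0591) or 4 (0.0770) and without the filter on low values (0.0675). It held against control replicates 2 and 3 alone (0.50, adjusted p = 0.0337) and with these against knockout replicates 1 to 3 (0.45, adjusted p = 0.0485). Tle1 and Tle4 transcripts share 21 stretches of 50 bases, 0.368% of the smaller set, and no other pair of members shares any.

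Whether paralogs changed to different extents was tested on the log2 difference of each pair within a library, with a two-sided exact permutation test of the group labels and adjustment over 5 pairs. Pygo1 minus Pygo2 was -0.32 ± 0.12 in control and 0.40 ± 0.13 in knockout (SD), a change of 0.71 (exact p = 0.00794, the smallest this design allows, adjusted p = 0.0198). Pygo2 thus had the higher mean count in control and Pygo1 in knockout, with no allowance for transcript length. Per kilobase of exon, Pygo2 stayed above Pygo1 in both groups, at 114 and 42.3 in control and 125 and 75.2 in knockout. Tle1 minus Tle4 went from 2.80 ± 0.31 to 1.82 ± 0.16, a change of -0.97 (exact p = 0.00794, adjusted p = 0.0198). Bcl9 minus Bcl9l went from 1.57 ± 0.20 to 1.97 ± 0.15, a change of 0.40 (exact p = 0.0238, adjusted p = 0.0397). Of the 5 pairs, 0 passed the adjusted threshold when knockout replicate 1, 2, 3 or 4 was left out, where the exact test cannot go below 0.0286, or against control replicates 2 and 3 alone, where it cannot go below 0.0476.

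The other 2 pairs did not pass the test. Tcf7l1 minus Tcf7l2 went from 0.63 ± 0.52 to -0.13 ± 0.71, a change of -0.76 (exact p = 0.119, adjusted p = 0.149). Lef1 minus Tcf7 was -0.54 ± 0.94 in control and -0.54 ± 0.43 in knockout (exact p = 0.968, adjusted p = 0.968). The fall of Tcf7l1 was therefore not shown to differ from the change of Tcf7l2, whose libraries varied more.

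Per kilobase of exon, which allows levels of different genes to be compared, the order in control was Bcl9 (129 ± 25.1 normalized counts per kb, SD, n = 4), Tle1 (124 ± 6.90), Pygo2 (114 ± 1.66), Tcf7l1 (45.8 ± 9.07), Bcl9l (45.5 ± 5.98), Pygo1 (42.3 ± 3.96), Tle4 (27.3 ± 4.17), Tcf7l2 (13.9 ± 5.93), Tcf7 (13.4 ± 2.70) and Lef1 (2.94 ± 1.60). Neighbours in this order overlapped between libraries for Bcl9 and Tle1, Tcf7l1 and Bcl9l, Bcl9l and Pygo1, Tle4 and Tcf7l2, and Tcf7l2 and Tcf7. The cofactors Bcl9, Tle1 and Pygo2 were thus more abundant per length than any of the 4 DNA-binding factors. In knockout the order was Bcl9 (225 ± 22.1, n = 5), Pygo2 (125 ± 14.7), Tle1 (81.7 ± 9.25), Pygo1 (75.2 ± 8.82), Bcl9l (61.1 ± 11.7), Tle4 (35.0 ± 2.74), Tcf7l1 (28.0 ± 4.45), Tcf7l2 (15.0 ± 7.70), Tcf7 (14.7 ± 3.79) and Lef1 (3.07 ± 1.16). Overlapping neighbours there were Tle1 and Pygo1, Pygo1 and Bcl9l, Tcf7l1 and Tcf7l2, and Tcf7l2 and Tcf7.

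The make-up of each family is given as shares of its summed count per kb, as a description with no test. Tcf7l1 supplied 60.3% ± 6.20 of the TCF/LEF sum in control and 47.0% ± 8.36 in knockout, Tcf7 18.2% ± 5.09 and 24.4% ± 4.43, Tcf7l2 17.8% ± 5.42 and 23.7% ± 7.57, and Lef1 3.75% ± 1.58 and 4.92% ± 0.823. The TCF/LEF sum itself was 76.1 ± 12.2 in control and 60.8 ± 13.6 in knockout. Tcf7l1 was the main TCF/LEF transcript in both group means. Pygo1 supplied 26.9% ± 1.65 of the Pygopus sum in control, from 25.2% to 28.7%, and 37.7% ± 2.11 in knockout, from 35.6% to 40.4%. Bcl9 supplied 73.8% ± 2.65 and 78.7% ± 1.79 of its pair, whose sum was 175 ± 29.3 in control and 286 ± 33.1 in knockout.

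For the full-length TLE genes, Tle2 and Tle3 were added from the list of other nuclear machinery. Tle1 supplied 44.8% ± 2.34 of the TLE sum in control and 30.5% ± 3.45 in knockout, Tle2 5.90% ± 2.05 and 17.2% ± 3.44, Tle3 39.4% ± 1.19 and 39.2% ± 1.05, and Tle4 9.92% ± 1.92 and 13.1% ± 0.494. The sum of the 4 genes was 278 ± 20.9 in control and 268 ± 12.1 in knockout, a difference smaller than the spread between libraries. The mean share of Tle1 was lower in knockout and that of Tle2 higher, each by more than the spread between libraries.

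**Figure D3:**
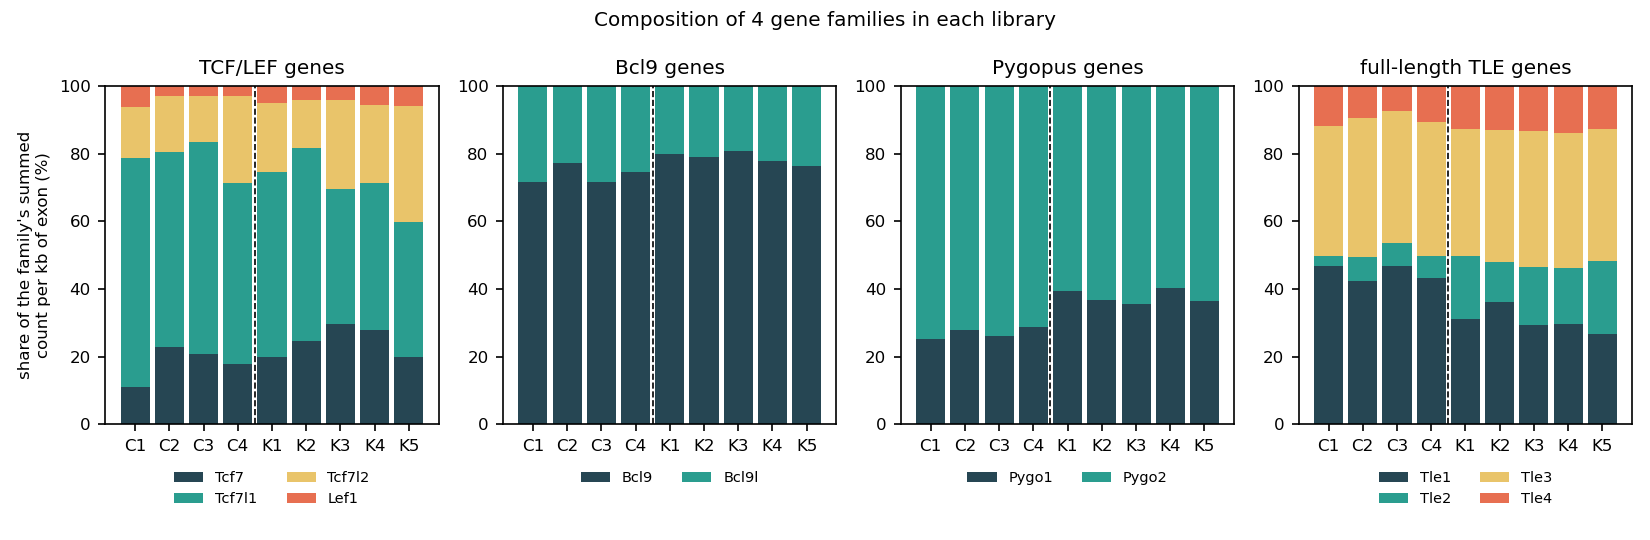
Stacked bars of the share (%) of each family's summed count per kb of exon in every library, 4 controls (C) left of the dashed line and 5 knockouts (K) right of it. Pygo1 takes 25.2% to 28.7% of the Pygopus sum in control and 35.6% to 40.4% in knockout, and the Tle2 part of the TLE bar is larger in knockout (mean 17.2%) than in control (5.90%).

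Among 27 other genes of the nuclear complex, 3 were higher (Tle2, Ldb1 and Crebbp, of which Ldb1 and Crebbp each lost the call in 10 of 21 alternatives), 6 lower and 18 not called, with a median log2 fold change of -0.06, against 17.2% and 17.3% of all genes and a median of -0.011. Tle2, another full-length Groucho co-repressor, stood at 44.5, 133, 124 and 114 in control and 288, 203, 282, 292 and 366 in knockout. Every knockout library was above every control, and control replicate 1 was the lowest. The mean rose from 104 ± 40.3 (SD, n = 4) to 286 ± 57.7 (SD, n = 5), a log2 fold change of 1.55 (SE 0.312, limma adjusted p = 0.00456). The value was 1.13 against control replicates 2 and 3 alone and 0.98 with these against knockout replicates 1 to 3, and the call held in both. Tle3 was not called, at 1277 ± 131 and 1222 ± 81.3, though it was called lower with the length and GC correction. Tle5, the short family member that lacks the repression domains, was not called either, at 3066 ± 238 and 3518 ± 436. With control replicates 2 and 3 against knockout replicates 1 to 3, Tle5 and Tnik were called higher. Tnik, not called with all libraries, was also called higher against control replicates 2 and 3 alone.

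Of the lower genes in this list, Ccnc, the cyclin of the Mediator kinase module, fell from 237 ± 14.7 to 165 ± 20.5 (log2 fold change -0.53, limma adjusted p = 0.00306). Hdac1, a deacetylase that TLE proteins recruit, fell from 245 ± 9.44 to 179 ± 20.3 (-0.46, adjusted p = 0.00453). Its paralog Hdac2, the more abundant by count, was not called, at 2746 ± 198 in control and 2588 ± 281 in knockout (limma adjusted p = 0.493). Ruvbl2, an ATPase of chromatin complexes that also binds beta-catenin, fell from 1199 ± 122 to 907 ± 88.1 (-0.40, adjusted p = 0.00595). Ctbp2, a co-repressor, and Cdc73, a subunit of the elongation complex Paf that binds beta-catenin, each fell by 0.38 on the log2 scale (adjusted p = 0.0106 and 0.0117). Tbl1x was at -0.24 (limma adjusted p = 0.0488) and lost the call in 12 of 21 alternatives, TMM scaling among them. Against control replicates 2 and 3 alone, Ccnc was the 1 lower gene that kept its call. Hdac1 was then at -0.41 (adjusted p = 0.0514), Cdc73 at -0.39 (0.0559), Ctbp2 at -0.36 (0.0689) and Ruvbl2 at -0.28 (0.0883), with fewer controls in the fit. With these controls against knockout replicates 1 to 3, Ccnc and Ctbp2 kept their calls, and Hdac1 was at -0.33 (adjusted p = 0.0865), Cdc73 at -0.27 (0.0881) and Ruvbl2 at -0.18 (0.151). The mitosis and radial glia markers given above were lower in the same libraries, and their part in these values was not tested.

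Target and feedback genes went in both directions. Of 13, 9 were tested, and 3 were higher and 3 lower, with a median log2 fold change of 0.39, against the same background of 17.2% and 17.3%. Notum, Rnf43, Lgr5 and Dkk1 were below the minimum mean. Sfrp2, a secreted modulator of Wnt ligands, fell by 0.74 on the log2 scale (limma adjusted p = 0.000271), Ccnd1 (cyclin D1) by 1.51 (0.00989) and Znrf3, a ubiquitin ligase that removes Frizzled receptors, by 0.67 (0.0490). Ccnd1 stood at 1858 in the heterozygous control replicate 4, at 802 to 980 in the other controls and at 224 to 537 in knockout. Summed mitosis and radial glia markers were also lower in knockout, and their part in these falls was not tested. Myc, a growth regulator, rose by 1.46 (adjusted p = 0.000439), Sp5, a repressor induced by Wnt, by 1.73 (0.0168) and the feedback inhibitor gene Axin2 by 0.49 (0.0190). Sp5 was highest in knockout replicate 4, at 96.6 normalized counts against a control mean of 8.27 ± 2.56. In the other knockout libraries it ran from 11.1 to 34.6, and its highest control was also at 11.1. Knockout replicate 4 was the highest library for Axin2 (193) and for the summed diencephalic markers (898) as well. Among the knockouts it was also the highest for the summed hem and Cajal-Retzius (606) and choroid plexus (757) markers. Apcdd1, a target that was not called (limma adjusted p = 0.268), stood at 1422 in this library and at 302 to 454 in the others. The part of neighbouring tissue in these values was not tested. The call of Sp5 was lost without control replicate 4 and that of Axin2 without control replicate 3 or without knockout replicate 4. Axin2 was also not called with the replicate block (0.45, adjusted p = 0.0557), with the length and GC correction (0.31, 0.0755) or with control replicates 2 and 3 against knockout replicates 1 to 3 (0.37, 0.169). Znrf3 lost its call when any 1 of 7 libraries was left out (control replicates 2 to 4 and knockout replicates 1, 2, 3 and 5), with TMM scaling (adjusted p = 0.0511), without trend or robust (0.0777) and with the replicate block (0.0977). Against control replicates 2 and 3 alone, Sp5, Axin2 and Znrf3 were not called, at 1.65 (adjusted p = 0.122), 0.51 (0.0790) and -0.86 (0.0789). Nkd2, not called with all libraries (0.39, limma adjusted p = 0.434), was called higher in that fit. Its counts were low, at 10.9 and 7.03 in these controls and 16.3 to 27.7 in knockout.

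**Figure D4:**
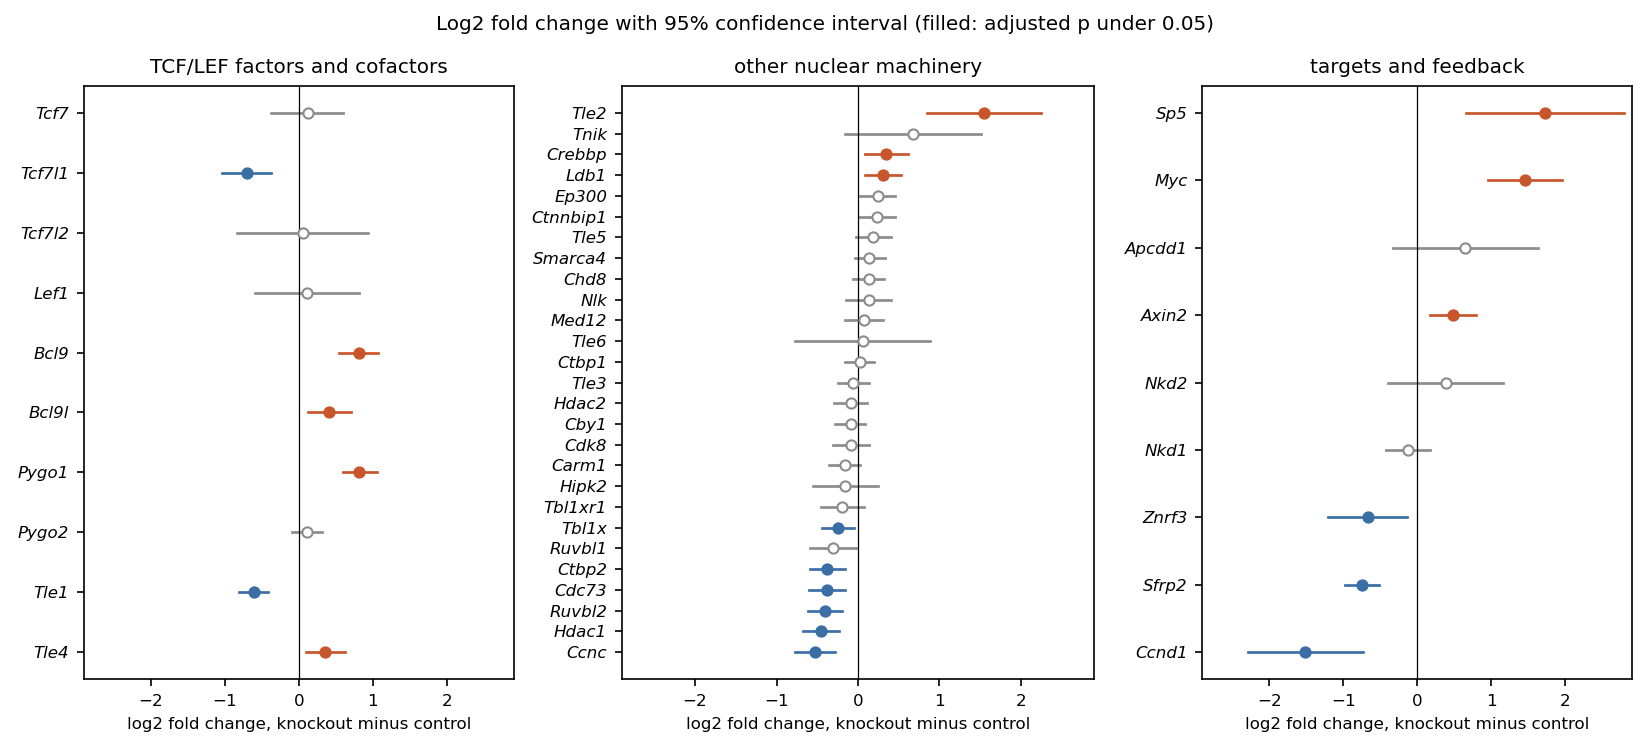
Log2 fold change, knockout minus control, with its 95% confidence interval for the 10 genes (left), the 27 other genes of the nuclear complex (middle) and the 9 tested target and feedback genes (right); filled points have an adjusted p under 0.05. Pygo1 (0.82) and Bcl9 (0.81) lie farthest to the right and Tcf7l1 (-0.70) farthest to the left among the 10, while the intervals of Tcf7, Tcf7l2, Lef1 and Pygo2 hold 0.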

How the data were processed

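RNA-seq read counts per gene, divided by 1 size factor per library, were deposited by the authors as a normalized signal. The submitters' processing notes name mm10, DESeq2, R 3.4.0, HTSeq 0.9.1 and TopHat2 2.1.1, without their roles; the strand setting is not given in the sources, and overlapping antisense genes are therefore uncertain. Values were whole multiples of 1 step per library to within 5.12e-06, but too few columns passed the unit check as whole reads, so no count model was fitted. Of 48526 identifiers, 48058 matched a symbol. The main test was limma 3.58.1 (trend and robust, R 4.3.3) on log2(normalized count + 1) for genes with a mean of at least 10, with Benjamini-Hochberg adjustment over 13780 genes and a threshold of 0.05; this scale understates changes of low genes. The procedure was tested on simulated data. Positions and exon lengths are from GENCODE M21 (mm10) and promoters from RefSeq. Named were Ctnnb1, the 10 members, up to 6 called genes per list with the smallest p, and 3 nearest profiles per TCF/LEF factor. Tle3, Tle5, Hdac2, Tnik, Tbl1x, Nkd2 and Apcdd1 were named after their values were seen. The members, lists and marker genes were chosen with earlier results of these data known. Alternatives were no filter, pseudocounts of 0.5 and 8, a minimum mean of 50, TMM and upper-quartile scaling, a simpler variance model, library weights, a replicate block, a length and GC correction, each library left out, and control replicates 2 and 3 as the only controls. The deposited data held no pair of libraries of the same group that agreed within sampling noise. Pairs across the groups were not checked.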

Additional observations from a re-analysis of the deposited data

Results flagged for a closer look

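Tle4 in control replicate 3 stood at 121 normalized read counts, far from the other 3 controls, which lay between 164 and 172. The gap was 0.845 of the group's range, above Dixon's 95% critical value of 0.829 for 4 samples. Among 22 groups tested this was the 1 that passed, and chance passes about 5% of groups.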

How the results depend on the processing

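Bcl9 (0.52 to 0.92), Pygo1 (0.70 to 0.88), Tle1 (-0.75 to -0.57) and Ctnnb1 kept direction and call under all 21 alternatives, and Tcf7l1 under all but the fit against control replicates 2 and 3 alone. The replicate numbers did not pair the libraries (correlations of same-numbered deviations -0.117, -0.0916, 0.137 and -0.0406). With the replicate block, 2 members were higher (Bcl9l and Tle4 lost) and 3510 of 13780 genes were called against 4749 without it. Leaving out each library in turn gave 2 to 4 members higher, 1 to 4 other nuclear genes higher and 0 to 3 paralog pairs past the threshold; with 4 against 4 libraries the exact test cannot go below 0.0286, and with 2 controls below 0.0476. Against control replicates 2 and 3 alone, 1 member and 1 other nuclear gene were lower, 0 paralog pairs passed, and 2478 genes were called; with these against knockout replicates 1 to 3, 2 other nuclear genes were lower and 2582 genes were called. Fewer libraries entered both fits. Other nuclear genes higher numbered 1 with the length and GC correction, with library quality weights and without trend or robust; under the length and GC correction 9 were lower, with Carm1, Tbl1xr1 and Tle3 gained, so the split went from 3 higher and 6 lower to 1 and 9. The cause was not tested. Bcl9l was not called with the length and GC correction (0.03, adjusted p = 0.800), library quality weights (0.26, 0.107), the replicate block (0.33, 0.0743) or without trend or robust (0.0634). Members that were not called changed sign: Tcf7 was -0.19 with control replicates 2 and 3 against knockout replicates 1 to 3, -0.05 with quality weights and -0.03 to 0.25 with 1 library left out; Tcf7l2 was -0.19 with the replicate block and -0.19 to 0.32 with 1 left out; Lef1 was -0.05 and -0.07 to 0.43; Pygo2 was -0.08 with the length and GC correction. The change of Lef1 minus Tcf7 was 0.55 against control replicates 2 and 3 alone and -0.20 to 0.46 with 1 left out. Tcf7 and Lef1, at a mean under 50, were not tested with that minimum; their low counts limit the precision of both.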
